A study of Mus musculus with 8 samples.

Results

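Processed pseudogenes are copies of genes that were made by reverse transcription of an mRNA and pasted back into the genome, so they lack the introns and usually the promoter of the gene they came from. Members were selected on their annotation, as all genes of the types processed pseudogene and transcribed processed pseudogene on chr1-19 of the mouse genome (build GRCm38/mm10). The group itself was proposed because coverage in these libraries had been seen to differ between their bodies and their flanks, so that ratio is given as a description. The rule found 9193 members among 51229 annotated genes, of which 8924 were processed and 269 were transcribed processed pseudogenes. A parent was taken from the symbol where it ends in -ps, and 506 of the 605 members with such a symbol led to 1 of 232 protein-coding parents on the same chromosomes.

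LINE-1 reverse transcriptase makes such copies in the germ line, and mRNAs that are abundant there, above all those of ribosomal proteins, have left the most copies. A young copy is nearly identical in sequence to its parent's mRNA, whereas an old one has gathered substitutions. Short reads from a parent, from its spliced mRNA and from its copies can therefore be hard to place.

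CUT&Tag uses an antibody to direct a transposase to the chromatin that carries a protein, here the transcription factor SOX9, which is made by astrocytes and other glia of the spinal cord. All mice were wild type, of the strain C57BL/6JR and between 2 and 6 months old, and they were either uninjured or killed at 1 d.p.i. (day postinjury) after a contusion of the thoracic cord. For the sort of nuclei the methods point to an earlier protocol, which names a DNA stain and antibodies to NEUN or SOX10. Which of these served for CUT&Tag is not stated. The tissue was 5 mm of cord, centred on the lesion or, without injury, at the matching level. Each sample gave 150000 nuclei, and the methods describe pooling of animals in the sequencing experiments. Each control was made from 20% of a sample's nuclei, which met the secondary antibody but no antibody to SOX9. The 8 libraries thus form 4 groups of 2, with 1 male (M) and 1 female (F) library in each: SOX9 uninjured, SOX9 at 1 d.p.i., control uninjured and control at 1 d.p.i.

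The SOX9 libraries held 1901433 (uninjured M), 7248962 (uninjured F), 2538725 (1 d.p.i. M) and 2396777 (1 d.p.i. F) fragments, counted as rises of the coverage. The controls held 22848, 47049, 53341 and 10948 in the same order, which is used for every series of values that follows. A control therefore leaves most members empty, and 7997 of the 9193 had no control fragment at all, against 1329 with no SOX9 fragment.

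The controls also stood apart in another way. Of their lone fragments, those that overlap no other fragment of the library, 93.7% (uninjured M), 82.7% (uninjured F), 86.5% (1 d.p.i. M) and 91.4% (1 d.p.i. F) began exactly where a fragment of a SOX9 library begins and ended where one of the same library ends. After a shift of 100 bp the shares were between 0.0694% and 0.116%. Among the SOX9 libraries themselves, 1.65% to 4.01% of lone fragments were shared with another SOX9 library. Control values are thus not independent of the SOX9 values, so the values of the SOX9 libraries and of the controls are mostly given separately. Control values are not printed for every result.

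Member bodies were short, with a median of 556 bp, a shortest of 18 bp and a longest of 259692 bp, the longest being bodies annotated with introns. Together they spanned 10.5 Mb, or 0.438% of the sequenced bases of chr1-19. A blastn match to a protein-coding transcript was found for 8432 members, with a median identity of 90.03%, and 2188 matched at 95% or more. Where the symbol gave a parent and a match was found, the best match was that parent for 474 of 499 members, so symbol and sequence mostly pointed to the same gene. Median GC content was 47.4% in bodies and 41.5% in the 2 kb flanks. CpG dinucleotides had a median of 0.240 of the number that base composition would give. Of the body bases, 68.4% were the centre of a 31-mer that occurs once in the genome, against 78.8% of flank bases. Most members lay between coding genes, 2143 lay inside one, 455 overlapped an exon of another gene and 289 had a coding start in the body or within 2 kb.

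Coverage over the summed bodies, divided by the library mean, was 0.858 (uninjured M), 0.675 (uninjured F), 0.867 (1 d.p.i. M) and 1.31 (1 d.p.i. F) in the SOX9 libraries. In the flanks it was 0.779, 0.675, 0.717 and 0.769. The bodies were thus at or slightly above their flanks in 3 libraries and clearly above them in the female library at 1 d.p.i. Body over flank ratios were 1.1, 1.00, 1.21 and 1.70, with a mean of 1.25 ± 0.311 (SD, n = 4). These levels rest on 8274, 25158, 11143 and 15047 fragments over bodies. The same ratio in the controls was 1.61, 5.40, 8.57 and 1.74, on 127, 926, 1962 and 60 fragments. Member bodies took 2.0% of the coverage of the uninjured F control and 4.07% of that of the 1 d.p.i. M control, against 0.296% to 0.573% in the SOX9 libraries. So 2 controls, from animals of different sex and condition, carried most of the control coverage over members.

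The coverage was spread thinly over many members. A fragment was present over 3850, 6088, 4274 and 4778 members in the SOX9 libraries, and the median level was 0, 0.372, 0 and 0.219 times the library mean. The 99th percentile was 8.02, 5.40, 8.32 and 19.7, so the upper end of the range set the female library at 1 d.p.i. apart more than the middle did. Of member coverage, 10.0% to 12.9% lay in the 10 members with the largest summed coverage in each SOX9 library. Long bodies count for more in that sum, so these need not be the members of highest level. The 92 members with the highest mean SOX9 level, 1% of all, held 4.41%, 4.51%, 9.67% and 18.8% of member coverage in the SOX9 libraries and 9.88%, 41.0%, 38.7% and 8.97% in the controls. Of these 92, 78 had an identity of 95% or more.

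Bases at the centre of a unique 31-mer gave smaller ratios. On them alone the body over flank ratio was 1.04, 0.953, 1.07 and 1.32 in the SOX9 libraries and 1.5, 2.85, 4.78 and 1.70 in the controls. The order of the SOX9 libraries was the same as over all bases. Members of the processed type had ratios of 1.18, 1.04, 1.31 and 2.02, whereas the 269 transcribed ones, whose bodies often hold introns, had 0.731, 0.558, 0.698 and 0.800. A symbol with -ps and a parent, of a ribosomal protein gene for 248 of the 506, went with ratios of 1.38, 1.3, 2.1 and 4.20.

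Members were then divided by their identity to a coding transcript. For the 933 members at 98% or more, the body over flank ratio was 1.46, 1.13, 2.05 and 4.09 in the SOX9 libraries. At 95 to 98% (1255 members) it was 1.21, 1.19, 1.68 and 2.68, and at 90 to 95% (2042 members) 1.02, 0.922, 1.02 and 1.36. Below 90% the ratios came close to 1 in the SOX9 libraries. They were 0.940, 0.834, 0.964 and 1.08 at 85 to 90% (1760 members), 1.12, 1.09, 1.06 and 1.15 at 80 to 85% (1290 members), and 1.03, 0.928, 0.972 and 1.05 below 80% (1152 members). In the libraries at 1 d.p.i. the ratio was thus highest in copies of high identity. Both libraries at 1 d.p.i. exceeded both uninjured ones in the classes from 95% upward and, by less, at 85 to 90%. In the controls the ratio at 98% or more was 2.33, 16.1, 20.2 and 3.27, and below 80% it was 1.77, 0.894, 1.34 and 1.32. The 761 members with no coding match had 1.31, 1.33, 1.26 and 1.22 in the SOX9 libraries, so both libraries at 1 d.p.i. were below both uninjured ones, and in the uninjured F library the ratio was above those of the classes from 95% upward.

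Coverage along the body showed the same contrast. Over 2098 members of 1 exon with an identity of 95% or more, the level in the SOX9 library of the 1 d.p.i. female was 0.947 in the bin that ends 100 bp before the body and 1.56 in the last 100 bp before it. With the body divided into 10 equal bins, it was 2.63 in the first, reached 5.10 in the sixth and was 2.73 in the last, with 1.59 in the first 100 bp downstream. The step thus fell at the annotated ends and the level was highest mid-body. The male library at 1 d.p.i. went from 0.768 upstream to a highest value of 2.1. In the uninjured libraries the highest values were 1.55 (M) and 1.22 (F). Over 2053 members of 1 exon below 85% identity, the 1 d.p.i. female library stayed between 0.595 and 0.939 throughout. The controls of the uninjured female and the 1 d.p.i. male reached 33.3 and 69.1 in the bodies of high identity.

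Control fragments over members were shared less often than those elsewhere. In the uninjured F control 32.8% (Wilson 95% interval 28.5 to 37.4) of lone fragments over members were shared with a SOX9 library, against 83.2% outside members and coding exons. For the 1 d.p.i. M control the shares were 21.7% (18.7 to 25) over members and 87.8% outside. The uninjured M control shared 83.5% (75.8 to 89.0) over members and 93.7% outside. The 1 d.p.i. F control shared 85.2% (73.4 to 92.3), an interval that holds its share outside, 91.3%. In the 2 controls that had many fragments over members, most of the lone ones thus had no match at both ends in a SOX9 library. Fragments that overlap others were not compared, and where the unmatched ones come from was not tested. Over members of 95% identity or more, the shares in the same 2 controls were 22.1% and 8.36%. Seen from the other side, members held 1.48%, 4.26%, 8.76% and 0.900% of the unshared lone fragments of the controls, and 0.503%, 0.434%, 0.380% and 0.485% of the shared ones. In the SOX9 libraries members held 0.527%, 0.536%, 0.536% and 0.535% of the unshared lone fragments. Lone fragments leave out places of high coverage by their definition, so these shares cannot show an excess there. Intervals cover counting error only.

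SOX9 libraries were compared with controls to set the antibody's signal over members beside the background. Body coverage averaged 0.927 ± 0.269 (SD, n = 4) of the library mean in the SOX9 libraries and 4.01 ± 3.88 (SD, n = 4) in the controls, where the single values were 1.09, 4.57, 9.29 and 1.08. The ratio of means was 0.231, and an exact two-sided permutation test gave p = 0.114, with 0.0286 the smallest p possible. On average, levels over members were thus no lower in the controls than with the SOX9 antibody, and the difference passed neither test. Without the 1 d.p.i. M control, the ratio of means was 0.412. Each control shares the sorted nuclei of its SOX9 library, so the mix of cells is the same in both. All libraries are bulk, so between conditions fewer cells of a type and less signal per cell cannot be told apart.

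The comparison of 1 d.p.i. with uninjured cord asks what differs in SOX9 coverage a day after injury. Mean body coverage was 1.09 ± 0.312 (SD, n = 2) at 1 d.p.i. and 0.767 ± 0.130 (SD, n = 2) in uninjured cord, a ratio of 1.42. The groups did not overlap, but the lower value at 1 d.p.i., 0.867, was nearly that of the uninjured male, 0.858. The exact permutation test (two-sided) returned p = 0.333, and 2 against 2 libraries allow no smaller value. Within the sexes the ratio was 1.01 in M and 1.94 in F, so nearly all of the difference came from the female pair. Body over flank ratios averaged 1.46 ± 0.348 (SD, n = 2) and 1.05 ± 0.0718 (SD, n = 2), a 1.38-fold difference given as a description, since the ratio is what the group was proposed for. For this measure both pairs differed in the same direction, 1.1-fold in M and 1.70-fold in F. Without the highest 1% of members the groups overlapped in body coverage, since the male pair went from 0.826 to 0.789 (ratio of means 1.26, p = 0.667 in an exact permutation test). Without the 1 d.p.i. F library the difference in body coverage was 1.13-fold and that in the ratio 1.15-fold.

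Single members were tested with limma over the bodies of all 30087 genes with at least 10 fragment starts in the SOX9 libraries, of which 978 were members. No gene body passed a Benjamini-Hochberg adjusted p of 0.05, so 0 of 978 members were called in either direction, beside 0% of all gene bodies. At an unadjusted p under 0.05 there were 241 of 978 members and 1320 of 30087 genes. The smallest adjusted p was 0.873 among members, and on simulated data the fit at this filter missed the changes put in, so the count of 0 says little. With a filter of 100 starts, chosen after seeing the data, 41 members were tested and limma called 1 of them as higher, the only call among 16492 genes. The median log2 difference of the 978 members, 1 d.p.i. over uninjured, was 0.33, beside −0.01 over all genes tested and −0.02 over 231 parents. It was 0.14 over 7061 members at a filter of 1 start, 0.20 at 30 and 0.13 at 100, so its size depends on the filter. The median member had only 2 fragment starts, and a member that passed the filter through the libraries where it was high had to differ, so these values do not speak for the members left out.

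For 319 of the 978 members (32.6%) each library at 1 d.p.i. exceeded each uninjured one, beside 15.1% of all gene bodies. Both were below for 114 (11.7%), beside 15.1%. These shares hold for members that reached 10 starts, some of which did so through the libraries where they were high, so nothing is read from them about members as a whole. Of the 405 with an identity of 95% or more, 197 (48.6%) were above and 22 (5.43%) below. Of the 573 others, 122 (21.3%) were above and 92 (16.1%) below. Parents gave 29 (12.6%) above and 37 (16%) below among 231.

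With sex as a term in the limma fit, which leaves a single residual degree of freedom, 31 gene bodies passed an adjusted p of 0.05 as higher at 1 d.p.i. and 3 as lower. Members made up 27 of the 31 (87.1%) and 1 of the 3. Most of the 27 reached 10 starts through the libraries at 1 d.p.i., so their make-up is a description. Of the 27, 21 had an identity of 95% or more and 14 had a ribosomal protein gene as parent or best match. Their median levels were 0, 0.460, 5.13 and 14.8, and 25 of the 27 were at 0 in the uninjured M library, which had fewest fragments of the SOX9 libraries. In the controls their median levels were 0, 61.4, 236 and 0. The other 4 genes are annotated as protein-coding, and 3 of them, Rpl10-ps3, Ftl1-ps1 and Gm11361, carry the tag of a retrogene, a copy that kept an open reading frame. Without the male library at 1 d.p.i., 37 of 30087 gene bodies were higher and 35 lower, of which 35 and 6 were members, and 18 members were on both lists, of 35 and of 27. The leading names are given here after their values were seen, since the rule for naming members found none at the filter of 10 starts without that term. Gm9616, a copy of the small-subunit gene Rps4x, had a log2 difference of 5.02, with levels of 0, 0.434, 10.5 and 44.0. Gm3531, a copy of Btf3 (a subunit of the complex that binds nascent polypeptides), had a log2 difference of 4.87 and levels of 0, 0.168, 9.04 and 29.2. Rpl10-ps1, identical to the mRNA of the large-subunit gene Rpl10 over the match, had 4.77 and levels of 0, 1.17, 14.2 and 41.5. With uninjured levels at or near 0, these differences depend on the pseudocount of 0.5, and members that reached the filter through the libraries compared give no valid p, so none is printed. In each of these the female value at 1 d.p.i. was the highest and the male one the next. The controls of Gm9616 stood at 0, 298, 546 and 0, on 0, 4, 6 and 0 fragments. The single lower member, Gm8254, a copy of the glycolytic gene Gapdh, had levels of 6.80, 2.35, 0 and 0 and no control coverage.

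Copies were then grouped by the function of the gene they came from. The 91 copies of small-subunit genes, named by symbol, had summed levels of 2.86, 1.79, 5.00 and 12.4 in the SOX9 libraries and 4.25, 105, 210 and 9.49 in the controls. A single copy, Rps19-ps6, held 69 of 153, 56 of 337, 113 of 283 and 269 of 667 of their SOX9 fragments. For the 157 copies of large-subunit genes the levels were 1.28, 0.958, 1.72 and 4.34, with 1.53, 32.8, 68.2 and 3.05 in the controls. In both families the female library at 1 d.p.i. was the highest SOX9 library and the male one the next. Grouped by best match at 95% identity or more, 37 copies of translation factor genes had 1.25, 1.06, 5.70 and 18.6, the highest level of any family in the 1 d.p.i. female. Their control levels were 1.68, 147, 243 and 0. Cytoskeletal genes (24 copies) had 3.59, 1.79, 3.4 and 12.1, where the male pair did not share the direction. In the controls these copies had 0, 73.2, 151 and 8.36. Glycolytic genes (65 copies) had 2.73, 1.61, 2.94 and 4.90, and genes of protein folding (33 copies) 0.613, 0.818, 1.86 and 3.95. Copies of chromatin and nuclear protein genes (85) stood at 0.942, 0.835, 1.26 and 2.86, and in the controls at 5.29, 16.3, 51.8 and 0. Those of mitochondrial respiration (46) stood at 1.08, 1.29, 1.70 and 2.0, and in the controls at 1.95, 9.66, 12.4 and 0. All 8 families on the lists, grouped this way, were highest among the SOX9 libraries in the 1 d.p.i. female. Grouped by symbol, the 9 copies of mitochondrial respiration genes were not, at 0.729, 0.303, 0.177 and 0.339 on 3, 5, 3 and 3 fragments. The 1329 copies of 95% or more outside the lists had 0.954, 0.781, 1.03 and 1.52, and 1.38, 4.41, 10.1 and 1.51 in the controls. Their body over flank ratios, 1.14, 1.12, 1.42 and 1.87, were above those of the mitochondrial family by best match, 0.732, 0.809, 1.03 and 1.43.

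Of the 232 parents, 28 had at least 5 copies named for them, and 20 of the 28 encode ribosomal proteins. In the 1 d.p.i. F library the copies of 27 of the 28, each parent's copies summed, lay above the mean SOX9 level of their flanks, against 16, 17 and 16 in the other SOX9 libraries. Against the same flank levels, the counts in the controls were 4, 19, 20 and 2. The 1 d.p.i. female gave the highest SOX9 level for 22 of the 28. For 13 of them both libraries at 1 d.p.i. exceeded both uninjured ones, and for 1 both were below, beside 15.1% of all single gene bodies in each direction. No such share was computed for sums over other sets. The 14 copies of Rps19, a protein of the small subunit, had 13.2, 4.30, 20.8 and 54.8 as a sum, while the exons of Rps19 itself stood at 6.35, 12, 9.90 and 7.36. A single copy, Rps19-ps6, held 69 of 82, 56 of 90, 113 of 130 and 269 of 331 of the fragments over these copies, so the sum mostly describes that copy. Control levels of the 14 copies were 5.93, 462, 1077 and 48.0. Copies stood above the exons of their parent for 9 of the 28 in the 1 d.p.i. F library and for 4, 1 and 2 in the others. The 24 copies of Rpl31, the largest set, had 0.768, 0.984, 1.05 and 3.81, and exons of Rpl31 had 4.24, 7.61, 2.2 and 3.30. In the controls its copies stood at 0, 38.2, 110 and 0. Copies of Rpl19 (9) had 0.935, 0.632, 2.55 and 6.98, against 1.98, 8.12, 5.50 and 2.45 over the exons of the parent. Their control levels were 0, 40.3, 117 and 0. For Tpt1, an abundant mRNA under translational control, 5 copies had 0.821, 0.429, 3.47 and 6.43, and the exons 11.6, 21.8, 17.3 and 19.9. Copies of Cbx3 (8), a reader of heterochromatin, stayed low at 0.561, 0.114, 0 and 0.291. So did the 5 of the nuclear pore gene Ranbp2, at 0.486, 0.0848, 0.352 and 0. Neither of these sets had control coverage. Copies of Rpl21 (14) stood at 0.264, 0.974, 0.775 and 1.16, with a parent at 1.59, 4.32, 3.59 and 2.23.

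Exons of the 232 parents together had a mean level of 3.82 ± 0.230 (SD, n = 2) at 1 d.p.i. and 4.06 ± 1.31 (SD, n = 2) in uninjured cord. The ratio was 0.942, with p = 1 in an exact two-sided permutation test. The male pair gave 1.27 and the female pair 0.735, so the sexes went opposite ways, and the difference between them was not tested. Without the SOX9 library of the uninjured female the ratio was 1.22. Of the parents, 9 of 231 had an unadjusted p under 0.05, with 0 called by limma. Much of this coverage lies at promoters. More than 1 kb from any coding start, parental exons stood at 1.73, 2.12, 1.89 and 1.97 in the SOX9 libraries, and exon over intron ratios were 1.21, 1.33, 1.21 and 1.28. All protein-coding genes gave 1.36, 1.55, 1.40 and 1.38, so the exon over intron ratio of parents was lower in each SOX9 library. Exon levels of all protein-coding genes, 1.68, 1.98, 1.78 and 1.72, were slightly below those of parents. In the controls the ratio was 1.56, 1.74, 2.04 and 1.45 for parents and 1.53, 1.69, 1.85 and 1.52 for all protein-coding genes, so parents were higher in 3 of the 4. The exons of 52 ribosomal protein parents stood at 10.6, 11.1, 9.25 and 4.12 in the controls and at 1.98, 3.24, 2.84 and 2.9 in the SOX9 libraries. Their introns were high too, at 7.47, 8.15, 7.53 and 2.74 in the controls and 2.26, 3.34, 2.45 and 2.87 in the SOX9 libraries. Exon over intron ratios were thus 1.42, 1.36, 1.23 and 1.5 in the controls, below those of all parents in 3 of the 4, and 0.876, 0.971, 1.16 and 1.01 in the SOX9 libraries.

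Rps19-ps6 was the highest member by its lowest SOX9 library. It lies at chr12:110898114-110898551 on the plus strand, in an intron of the autophagy gene Tecpr2, and matches Rps19 at 98.9%. Its levels were 158, 38.8, 249 and 611 in the SOX9 libraries, on 69, 56, 113 and 269 fragments, and 0, 5449, 12665 and 640 in the controls, on 0, 44, 99 and 2. Its flanks stood at 7.95, 2.81, 4.74 and 9.23, against 0.779, 0.675, 0.717 and 0.769 for the flanks of all members. Most fragments of this copy begin shortly upstream of the annotated body, as given below, and so count in the flanks too. These flank levels thus do not describe the surroundings alone. Rps18-ps3, a copy of another small-subunit gene on chr8, had 25.5, 10.4, 55.7 and 184, with 397, 2896, 3714 and 440 in the controls. Gm9794, a copy of the large-subunit gene Rpl23 on chr6 with an identity of 99.8%, had 25.2, 6.09, 52.9 and 120, and 0, 858, 2330 and 0 in the controls. All 3 followed the same order of SOX9 libraries, with the 1 d.p.i. female first and the uninjured female last. Gm11971 on chr11, a copy of Sumo2, which encodes a small modifier of other proteins, departed from it with 23.8, 32.1, 15.8 and 76.3 and with 0, 2983, 1700 and 0 in the controls.

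Several other members among the 10 highest had SOX9 coverage and few or no control fragments. The controls held far fewer fragments in all, so a lack of them at a single member says little about its background. Gm21769 and Gm10060, both of 111 bp on chr8 and both matching Nsfl1c, the gene of a cofactor of the p97 ATPase, had levels of 28.6, 67, 38.2 and 52.4 and of 26.1, 72.5, 59.2 and 59.0, with no control fragment. Gm12895 and Gm12896 on chr4, of 226 bp each, had no coding match and no unique 31-mer, and stood at 23.7, 38.4, 61.8 and 22.2 and at 16.3, 37.6, 70.5 and 20.0, again with no control fragment. Their order of libraries was not that of the copies of high identity, since the uninjured female was not the lowest. Gm5067 on chr5, a copy of the ribosome assembly gene Rrs1, stood at 17.6, 21.4, 15.7 and 22.1, with 3 control fragments. Hist3h2bb-ps on chr11, which matches the histone gene Hist3h2ba and has a coding start within 2 kb, had 15.5, 33.4, 19.2 and 19.9 and a single control fragment. In none of these 6 did the 1 d.p.i. female stand apart from the other SOX9 libraries.

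The highest body over flank ratios, among the 1710 members with at least 30 fragment starts in body and flanks and no coding start there, belonged to 4 copies of coding genes and to Gm12895, which has no coding match. Gm3226 on chr13 and Gm14150 on chr2, both copies of the tubulin gene Tuba1b, had ratios of 510 and 185 over the 4 SOX9 libraries. Gm9616 followed with 138, Gm5869, a copy of the elongation factor gene Eef1a1 on chr5, with 135, and Gm12895 with 133. The flanks of the first 4 were nearly empty, at 0, 0.00304, 0 and 0.0792 for Gm3226 and at 0 in 3 of the 4 SOX9 libraries for Gm14150, so the size and rank of these ratios say little. Gm5869 stood at 2.83, 0.570, 7.20 and 20.8 and Gm3226 at 10.2, 1.70, 11 and 19.1. Gm14150 stood at 1.64, 2.55, 2.67 and 11.6. These 3 and Gm9616 were highest in the 1 d.p.i. female, and Gm12895 was lowest there. At the other end the 5 lowest were tied at 0 with others, since 14 of the 1710 had no SOX9 coverage in the body at all. Among these were Gm16106, a copy of Rpl37a with an identity of 89.9%, whose flanks stood at 3.80, 5.99, 5.01 and 1.1, and Gm18604, a copy of Arl4a with flanks at 16.6, 14, 26.0 and 16.2. Both lay in covered surroundings, and neither had a control fragment.

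In some members the fragments began at a single base. Of 445 members with at least 20 fragments over the 8 libraries, 11 had 50% or more of them starting at the same 5′ base on the strand of the copy, and of 246 unprocessed pseudogenes 0 did. Identity was 95% or more for 10 of the 11, and the best match was a ribosomal protein gene for 8 and Sumo2 for 3. In Rps19-ps6, 504 of 651 fragments (77.4%) began 36 bp upstream of the annotated body. These were 55, 43, 96 and 192 in the SOX9 libraries and 0, 38, 78 and 2 in the controls, so antibody and control libraries used the same base. Fragments were counted anew for the edges, with 112 for this copy in the 1 d.p.i. M SOX9 library against 113 in the count given earlier. In Rps18-ps3, 177 of 213 fragments began at a single base. Gm11971 had 187 of 241 at a base 148 bp into its body. Gm10241, another copy of Sumo2 on chr16, had 14 of 21 at the same distance into its own. Over all 11 members the edges held 109, 152, 227 and 552 of 139, 222, 275 and 720 fragments in the SOX9 libraries, and 2, 145, 224 and 4 of 3, 176, 283 and 4 in the controls. Fragments at the edges were therefore most numerous in the 1 d.p.i. female among the SOX9 libraries and in the 2 controls named above.

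The sequences at 8 of these edges are printed because the bases around them show what the copies share. Each is given 5′ to 3′ on the strand of the copy, from build GRCm38/mm10, and capitals mark the 20 bases from the edge onward, that is, the part that lies within the fragments. The places are chr12:110898068-110898097 (plus) for Rps19-ps6, chr8:107263273-107263302 (minus) for Rps18-ps3, chr4:71371219-71371248 (minus) for Rps18-ps1, chr15:7975038-7975067 (plus) for Rpl19-ps6, chr4:63895855-63895884 (minus) for Rpl17-ps4, chr4:59090649-59090678 (plus) for Gm12593, chr11:6453289-6453318 (plus) for Gm11971 and chr16:20176845-20176874 (minus) for Gm10241.
Rps19-ps6: accaacccaaGCCCTTTCCCCTGGCTGGCA
Rps18-ps3: aatccaaagaGCTCTTCCACAGGAGGCCTA
Rps18-ps1: tgaaaatcttGCTTCCACAGGAGGCCTACA
Rpl19-ps6: gagttgccacGCCTTTCGCTGCTGCGGCCG
Rpl17-ps4: ggccaaacagTGGGGCTGGACACAAGGTCG
Gm12593: gtgttgaaggATGGGGGTACCTTACTGCAT
Gm11971: cattgtgaatGGCAGGGTTTGTCAATGAGG
Gm10241: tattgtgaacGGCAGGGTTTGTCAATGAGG
In 4 of them, those of Rps19, Rps18 and Rpl19, the capitals open with a pyrimidine-rich stretch after the first bases. Both copies of Rps18 run into the same bases within the capitals, and both copies of Sumo2 have identical capitals. Compared with the transcripts of their best matches, the capitals had 0 mismatches of 20 for both copies of Sumo2, 1 for Rps19-ps6, Rps18-ps3, Rps18-ps1, Rpl19-ps6 and Rpl17-ps4, and 2 for Gm12593. The same bases thus occur, or nearly so, in the mRNA of the parent.

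Motifs of SOX factors were counted in the bodies and beside them, with no test. The core ACAAAG, read on both strands, was in 47.9% of bodies, 47.3% of windows of the same length before them and 46.4% of windows after them. The related ACAATG was in 39.5%, 35.6% and 35.9%, and TGANTCA, the site of AP-1 factors that act after injury, in 16.7%, 19.8% and 18.8%. Of the 3 motifs the second was somewhat more common in bodies and the last somewhat less. A match is only a run of letters, and no binding was read from it.

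Other classes of gene copies put the members in context. The 1789 unprocessed pseudogenes, which arose by duplication of DNA and keep introns, had body over flank ratios of 0.658, 0.464, 0.719 and 0.612 in the SOX9 libraries and 0.624, 0.475, 0.289 and 0.794 in the controls. None of these was above 1. The exons of 84 protein-coding retrogenes had 1.19, 0.987, 1.33 and 2.47 over their flanks, and 1.91, 24.9, 26.9 and 0.329 in the controls. Retrogenes thus followed the order of the processed pseudogenes in the SOX9 libraries, and duplicated pseudogenes did not.

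Markers of cell types were read within 1 kb of their start sites as a check on the tissue. The 4 genes of the oligodendrocyte lineage (Sox10, Olig1, Olig2 and Mbp) had mean levels of 14.9, 18.0, 16.2 and 10.7, with Sox10 the most covered in the uninjured libraries. Astrocyte genes, Sox9 among them, had 2.1, 2.23, 3.31 and 1.95 over 5 genes, and Aqp4 was at 0 in the uninjured M and 1 d.p.i. F libraries. Neuronal genes (5) had 3.73, 6.09, 4.68 and 2.99, and microglial genes (3) 1.42, 1.20, 1.67 and 1.57. The 5 genes of other tissues had 1.67, 0.911, 0.445 and 0.589. In the controls the oligodendrocyte genes had 14.3, 16.5, 23.3 and 36.9, the neuronal genes 18.8, 0, 0 and 0, and the other lists were at 0 throughout. The 36.9 came from Olig1 alone, at 148, and the 18.8 from Syt1 alone, at 94.2. With so few fragments in the controls, neither these means nor the values of 0 say much about a cell type. The mean over the oligodendrocyte, astrocyte and neuronal lists was lowest in the 1 d.p.i. female of the 4 SOX9 libraries, but single genes differed. Gfap was highest there, at 2.18, 2.40, 3.32 and 3.45, and Sox9 stood at 4.00, 3.38, 8.52 and 4.19. The part of these levels in the member coverage was not tested.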

How the data were processed

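CUT&Tag coverage was read in 8 libraries of mouse spinal cord nuclei, grouped by antibody and condition per the labels. The authors demultiplexed the reads with deML, and the labels name Bowtie2 2.5.4, Picard 3.4.0 and SEACR 1.3. As deposited, the signal counts how many fragments cover a stretch, library by library and unscaled, and the step that wrote it is not stated. Coverage per base was divided by the mean over the sequenced bases of chr1-19. A rise of the coverage was taken as a fragment start, and starts were paired with ends in genomic order.

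Members, parents and transcripts came from GENCODE M21. Identity was taken from blastn 2.17.0+ (word size 16, e-value 1e-10), and 31-mers were counted over the whole genome. Python 3.11.15 with numpy 2.4.6 and scipy 1.17.1, and limma 3.58.1 in R 4.3.3, were used. The limma fit used log2(level + 0.5), a mean-variance trend and genes with at least 10 fragment starts, and was tested on simulated data, where it missed planted changes at this filter and found most at a filter of 100 starts. Summed values were compared with exact two-sided permutation tests. Alternatives covered member sets, flank width, pseudocount, filter, scaling, sex as a term and each library left out.

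Members and lists were chosen with earlier results of these data known. Named members were to be those called by limma, the 10 highest by lowest SOX9 library (with and without those near other starts or exons), the 5 highest and 5 lowest by body over flank ratio, and parents with at least 5 copies, of which those that show the range are given. Gene lists covered both ribosomal subunits, translation factors, glycolysis, mitochondrial respiration, chromatin and nuclear proteins, cytoskeleton and protein folding. Members on chrX and chrY were left out by the rule. The values of some members that the rule names are not reported here.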

Additional observations from a re-analysis of the deposited data

Results flagged for a closer look

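In 49 sets of 4 libraries a single library was looked for that stood far from the others, by the gap to its neighbour over the whole range, and 3 were found. Chance alone gives about 1 in 20, so 3 of 49 is near what it would give. All 3 were sums over the copies of a large-subunit gene in the SOX9 library of the 1 d.p.i. female: 3.81 times the library mean for Rpl31 (24 copies), 7.52 for Rpl30 (6 copies) and 7.77 for Rpl35a (6 copies). The other SOX9 libraries lay between 0.768 and 1.05 for Rpl31, between 1.12 and 1.48 for Rpl30 and between 1.01 and 1.13 for Rpl35a. The sets share libraries, so the 3 are not independent of each other.

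The sexes moved opposite ways in the exons of the parents, where 1 d.p.i. over uninjured was 1.27 in M and 0.735 in F. With 1 library for each sex and condition this difference was not tested.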

How the results depend on the processing

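The body over flank ratio in the SOX9 libraries (mean 1.25) was 1.56 with every member given equal weight. It was 1.94 over members of 95% identity or more, 2.25 over members with a parent found and 1.05 over members under 95% identity or with no match, 3 sets chosen after seeing the data. The other planned settings gave 1.09 to 1.31, and single libraries left out 1.1 to 1.34.

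Body coverage at 1 d.p.i. over uninjured (1.42) stayed above 1 in the planned settings, from 1.26 to 1.55, and with each library left out, from 1.13 to 1.71. In the 3 sets chosen after seeing the data it was 1.13 (under 95% identity or no match), 2.19 (95% or more) and 2.49 (parent found). The male pair went the other way in 2 settings: from 0.826 to 0.789 without the highest 1%, where the groups overlapped (exact permutation p = 0.667), and from 0.777 to 0.703 under 95% identity. The difference in the ratio (1.38) was 1.20 to 1.51 in the planned settings, 1.11 to 2.35 in the 3 sets and 1.15 to 1.62 with each library left out. Under 95% identity the male pair went from 1.04 to 1.02. With sex as a replicate block, the pairs gave 1.40 for body coverage (exact permutation p = 0.5, the smallest p that 2 pairs allow) and 1.37 for the ratio. SOX9 over control body coverage (0.231) lay between 0.179 and 0.338 in the planned settings, between 0.0904 and 0.530 in the 3 sets and between 0.186 and 0.412 with each library left out. As means, these 3 results did not cross 1 in any of these settings, and no test of body coverage passed.

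Exon coverage of parents (0.942) was 1.01 on exon bases more than 1 kb from any coding start, an alternative chosen after seeing the data, and 0.767 to 1.22 with each library left out. The cause was not tested.

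The count of members called by limma (0) was 28 (27 higher, 1 lower) with sex as a replicate block, 1 with a filter of 100 starts, chosen after seeing the data, and 0 to 41 with each library left out, where 41 came without the SOX9 library of the 1 d.p.i. male, whose lone partner is assumed to vary like the uninjured group. It was 0 in the 7 other settings. The cause was not tested.

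The scaling by 10-kb bins was not run for SOX9 against control, since between 84.5% and 95.9% of bins are empty in the controls. Control levels of single members often rest on few fragments, and a single library of each sex and condition limits each comparison of sexes to a description.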
